A study of Homo sapiens with 12 samples.

Results

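The zinc finger genes of chromosome 19 were followed through the response of NB-1 cells to 2 drugs. The set held every protein-coding gene of the deposited count table whose GENCODE release 29 name is ZNF followed by a number, with or without a closing letter, and whose locus lies on chromosome 19. This gave 246 of the 58051 genes in the table. Of these, 228 had enough counts to be tested among 17774 tested genes, and the other 18 summed to at most 75 counts over all libraries. NB-1 is an established human neuroblastoma cell line. Its cells were treated for 48 h with 0.5 µM BEZ-235 (dactolisib), which blocks the kinases PI3K and mTOR, with 0.5 µM SAHA (vorinostat), which blocks histone deacetylases, with both drugs at these doses, or with the solvent DMSO alone. Each of the 4 groups held 3 biological replicates of this single line, and polyadenylated RNA was sequenced.

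Proteins of this family bind DNA through arrays of C2H2 zinc fingers joined by a short conserved linker. Many also carry a Krüppel-associated box (KRAB), which recruits the corepressor TRIM28 and, through it, the H3K9 methyltransferase SETDB1, HP1 proteins and histone deacetylase complexes, and many of their known targets are transposable elements. The genes lie in tandem clusters that grew by duplication, and the cluster of band 19p12, home of ZNF91 and ZNF93, expanded in primates.

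By position in build hg38, 50 members lay in band 19p13 (from 2819874 to 19894674), 33 in 19p12 (19900913 to 24129961) and 163 on the long arm in 19q12-13 (30228290 to 58481230), of which 47, 24 and 157 were tested in that order. Members were AT rich. The median GC content of the longest transcript was 42.2% over members (33.9 to 71.1%), 43.1% in 19p13, 37.5% in 19p12 and 42.6% in 19q12-13, against 49.0% over protein-coding genes. The linker peptide TGEKP, searched in the longest transcript as ACNGGNGANAANCC, occurred at least 3 times in 186 members (75.6%) and in 0.903% of other protein-coding genes. ZNF850 had the most, 25. The KRAB peptide F-X-D-V-A, searched as TTNNNNGANGTNGC, was found in 161 members (65.4%) and in 5.13% of other protein-coding genes. By band, 35 members of 19p13, 27 of 19p12 and 99 of 19q12-13 held it. Such a match describes letters only.

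The promoters of the 19p12 genes resembled one another, and 6 are printed because they belong to 4 members that fell with both drugs and are described first (ZNF93, ZNF43, ZNF85, ZNF724) and to 2 neighbours that did not keep or reach such a call (ZNF91, ZNF737). The sequences come from a RefSeq promoter table in build GRCh38.p14, each with 250 bases before the start and 50 after it, in the direction of transcription. Capitals mark the word CCAATCAG, an octamer that contains the CCAAT box.
ZNF93, chr19:19900696-19900995, plus strand: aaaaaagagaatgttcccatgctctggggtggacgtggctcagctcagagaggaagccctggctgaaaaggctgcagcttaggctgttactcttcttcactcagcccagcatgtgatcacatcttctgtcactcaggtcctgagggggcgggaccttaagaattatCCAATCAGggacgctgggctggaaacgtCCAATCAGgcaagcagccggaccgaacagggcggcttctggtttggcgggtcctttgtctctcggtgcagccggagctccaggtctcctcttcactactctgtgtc
ZNF85, chr19:20923001-20923300, plus strand: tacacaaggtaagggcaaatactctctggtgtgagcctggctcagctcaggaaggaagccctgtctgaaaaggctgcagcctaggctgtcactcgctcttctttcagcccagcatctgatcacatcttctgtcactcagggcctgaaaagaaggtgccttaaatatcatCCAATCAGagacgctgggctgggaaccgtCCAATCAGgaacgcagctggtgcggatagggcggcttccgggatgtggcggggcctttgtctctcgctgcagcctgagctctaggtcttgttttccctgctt
ZNF43, chr19:21836133-21836432, minus strand: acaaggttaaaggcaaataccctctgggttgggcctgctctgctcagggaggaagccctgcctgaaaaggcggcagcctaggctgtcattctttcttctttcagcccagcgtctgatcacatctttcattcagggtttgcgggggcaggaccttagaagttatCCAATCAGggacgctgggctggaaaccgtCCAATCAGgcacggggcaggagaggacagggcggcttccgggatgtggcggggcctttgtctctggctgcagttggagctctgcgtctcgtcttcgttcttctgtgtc
ZNF724, chr19:23250345-23250644, minus strand: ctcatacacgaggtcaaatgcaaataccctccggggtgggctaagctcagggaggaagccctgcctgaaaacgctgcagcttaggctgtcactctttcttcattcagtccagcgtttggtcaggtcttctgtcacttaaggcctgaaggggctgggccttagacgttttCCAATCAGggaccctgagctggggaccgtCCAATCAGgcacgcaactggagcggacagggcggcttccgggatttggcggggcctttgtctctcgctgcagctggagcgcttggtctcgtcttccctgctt
ZNF91, chr19:23395422-23395721, minus strand: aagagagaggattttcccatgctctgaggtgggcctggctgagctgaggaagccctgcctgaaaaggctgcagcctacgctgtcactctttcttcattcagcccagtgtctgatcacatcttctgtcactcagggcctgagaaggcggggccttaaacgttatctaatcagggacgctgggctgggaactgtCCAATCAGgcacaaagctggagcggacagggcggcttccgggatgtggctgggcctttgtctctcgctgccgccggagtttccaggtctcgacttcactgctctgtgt
ZNF737, chr19:20565732-20566031, minus strand: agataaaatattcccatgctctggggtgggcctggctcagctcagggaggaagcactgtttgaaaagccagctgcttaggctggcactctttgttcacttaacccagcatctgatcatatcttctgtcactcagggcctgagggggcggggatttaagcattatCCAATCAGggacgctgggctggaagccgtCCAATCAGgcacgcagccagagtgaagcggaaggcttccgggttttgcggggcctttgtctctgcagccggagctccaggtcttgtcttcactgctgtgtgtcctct

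A promoter was found for 215 members. Searched on both strands (its reverse complement is CTGATTGG), CCAATCAG stood in 27 of 27 promoters of 19p12, in 27 of 46 of 19p13 (58.7%) and in 3 of 142 of 19q12-13 (2.11%). It was in 1393 of all 35116 promoters of the table (3.97%) and in 26 of 210 promoters of zinc finger genes on other chromosomes (12.4%). In 14 of the 27 promoters of 19p12 it occurred 2 times, as in ZNF93, where the copies begin 84 and 56 bases before the start. A 20-letter word, AGTGACAGAAGATGTGATCA, whose reverse complement reads TGATCACATCTTCTGTCACT, stood in 11 of these 27, ZNF93, ZNF85 and ZNF91 among them, and in 11 of the 35116 promoters in all (0.0313%). Both words were picked by looking at these promoters.

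The libraries held 17662944 to 79543539 counts, with SAHA replicate 2 the deepest. The adrenergic neuroblastoma markers HAND2 (351 to 676 CPM, counts relative to the scaled library total) and MYCN (719 to 1160 CPM) were present in every library. DBH was low (0.83 to 4.01 CPM). The Schwann cell marker SOX10 was at 0 throughout and the leukocyte marker PTPRC reached at most 0.103 CPM. Some markers of other cells were at or above the level of DBH. The endothelial marker VWF was at 2.13 to 4.86 CPM and the epithelial marker KRT19 at 0.75 to 4.96 CPM. The fibroblast marker DCN stood at 15.0, 13.9 and 16.7 CPM with SAHA, against 1.51, 1.13 and 1.38 CPM with DMSO. The libraries with both drugs stood apart by GC content. In the fifth of tested genes with the lowest GC content their median log2 difference from the DMSO mean was -0.34, -0.40 and -0.57, and in the fifth with the highest it was 0.22, 0.46 and 0.59. In the other 9 libraries these medians lay between -0.26 and 0.13. Since members are AT rich, the counts of calls over the set are given as counted and after correction of every library for GC content and transcript length. Single genes are given as counted, with the corrected value for only some of them. The other single-gene values can move under the correction. Whether the shift arose in the cells or in the libraries was not tested.

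BEZ-235 raised a large share of the set. Of 228 tested members 112 were called higher and 12 lower (edgeR, adjusted p under 0.05 over all tested genes), a share of 49.1% higher and 5.26% lower, where 25.5% of all tested genes were called higher and 25.4% lower. The median log2 fold change was 0.33 over members and 0.02 over all tested genes. The summed level of the members was 4700, 4890 and 5220 CPM with BEZ-235, against 3740, 3680 and 4030 CPM with DMSO. All 3 sums with BEZ-235 lay above all 3 with DMSO. The correction kept all 112 calls and gave 122 higher and 16 lower (all tested genes 27.7% higher and 28.0% lower), with a median of 0.31.

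The rise with BEZ-235 lay in 2 of the 3 bands. In 19q12-13, 84 members were called higher and 5 lower (median 0.36), and in 19p13, 23 were higher and 2 lower (median 0.29). In 19p12, 5 were higher and 5 lower (median -0.14). After the correction the medians were 0.35, 0.29 and -0.15 in that order. Zinc finger genes of other chromosomes had 105 higher and 21 lower of 233 tested (median 0.25), and the other protein-coding genes of chromosome 19 had 148 higher and 268 lower of 787 (median -0.15). Of the larger clusters on the long arm, the 26 tested members of the one at 39.4% median GC had 20 higher and 1 lower, with a median of 0.47, and the 57 of the most distal one had 24 higher and 1 lower, with a median of 0.30.

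**Figure D1:**
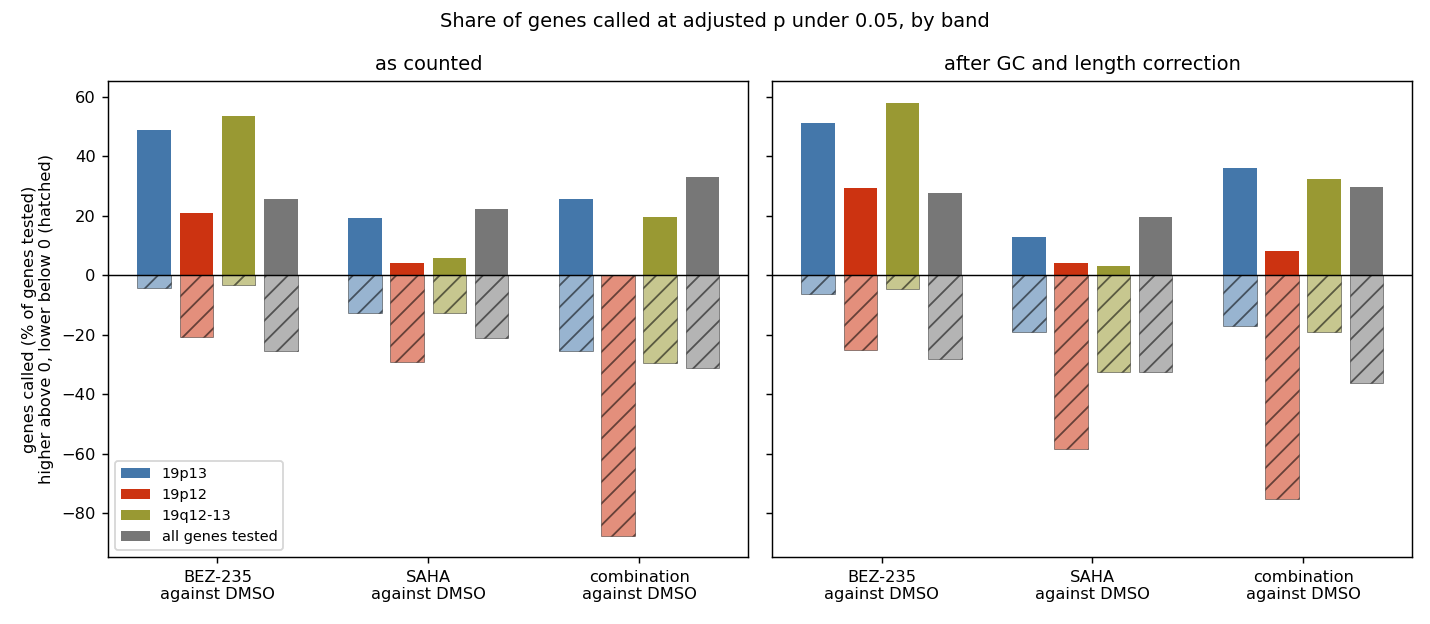
Share of tested genes called higher (above 0) and lower (hatched, below 0) in each band and among all tested genes, in percent, for each treatment against DMSO, as counted (left) and after GC and length correction (right). Members of 19p12 called lower with both drugs reach 87.5% as counted and 75.0% after correction, against 31.2% and 36.2% of all tested genes.

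Among single members, ZNF581 had the highest change with BEZ-235. It stood at 44.3, 38.7 and 39.1 CPM with BEZ-235, against 11.1, 11.7 and 10.1 CPM with DMSO, a 3.72-fold difference (log2 fold change 1.89 ± 0.11 SE, adjusted p = 4.80e-10). The groups did not overlap, which was a condition for every member named for the size of its change against DMSO. ZNF581 overlaps ZNF580 and CCDC106 on its strand, so its counts depend on how reads were divided between them. ZNF580 itself stood at 14.4 ± 1.29 CPM with BEZ-235 and 9.52 ± 1.11 CPM with DMSO (SD, n = 3 each), a change of 0.59 ± 0.12.

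ZNF577, ZNF83 and ZNF471 rose on the long arm too. ZNF83 stood at 69.5, 74.7 and 80.5 CPM with BEZ-235, against 32.9, 30.1 and 33.5 CPM with DMSO (1.22 ± 0.12, adjusted p = 6.03e-07). ZNF471, a KRAB gene known for promoter methylation in several cancers, stood at 24.4, 25.8 and 26.2 CPM with BEZ-235, against 12.9, 7.95 and 12.2 CPM with DMSO (1.21 ± 0.14, adjusted p = 3.42e-06). ZNF577 changed by 1.36 ± 0.17 (adjusted p = 7.59e-06). None of the libraries of these 3 genes overlapped between the groups.

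In 19p13, ZNF844, ZNF763 and ZNF558 led the rise. ZNF844 stood at 46.1, 50.3 and 51.0 CPM with BEZ-235, against 21.5, 22.2 and 22.9 CPM with DMSO (1.15 ± 0.08, adjusted p = 9.32e-09). ZNF558, a KRAB gene that represses the mitophagy gene SPATA18 in human neural progenitor cells, stood at 78.6, 77.9 and 84.8 CPM with BEZ-235, against 45.8, 46.0 and 48.7 CPM with DMSO (0.78 ± 0.09, adjusted p = 2.36e-06). Its groups did not overlap, nor did those of ZNF844. ZNF763 changed by 1.20 ± 0.18 (adjusted p = 3.61e-05), with 53.77% of its 50-base words shared with another gene.

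In 19p12, BEZ-235 raised some genes and lowered others (20.8% called higher and 20.8% lower, against 25.5% and 25.4% of all tested genes). ZNF493 stood at 36.6 ± 6.38 CPM with BEZ-235 and 19.1 ± 3.23 CPM with DMSO (SD, n = 3 each; 0.94 ± 0.20, adjusted p = 0.00139). ZNF254 stood at 29.1 ± 2.86 CPM with BEZ-235 and 17.4 ± 2.94 CPM with DMSO (0.75 ± 0.14, adjusted p = 2.26e-04). ZNF91, which represses SVA retrotransposons, stood at 20.4, 25.8 and 30.6 CPM with BEZ-235, against 16.4, 14.1 and 19.1 CPM with DMSO (0.63 ± 0.16, adjusted p = 0.00312). Every library with BEZ-235 was above every DMSO library for these 3 genes.

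ZNF93 and ZNF724 fell with BEZ-235. ZNF93, which represses L1 retrotransposons, stood at 7.02, 8.83 and 9.25 CPM with BEZ-235, against 16.1, 16.1 and 16 CPM with DMSO (-0.94 ± 0.15, adjusted p = 6.35e-05). ZNF724 stood at 1.66, 1.44 and 1.29 CPM with BEZ-235, against 4.39, 3.62 and 5.11 CPM with DMSO (-1.58 ± 0.20, adjusted p = 7.33e-06). Both groups were apart in both genes. Of the 50-base words of ZNF724, 55.8% occur in another gene, so its level is uncertain. Outside this band, ZNF530 (-1.0 ± 0.18, adjusted p = 1.74e-04) and ZNF331 (-0.94 ± 0.13, adjusted p = 1.52e-05) were the lowest called members of 19q12-13, and ZNF799 (-0.73 ± 0.21, adjusted p = 0.00728) of 19p13.

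**Figure D2:**
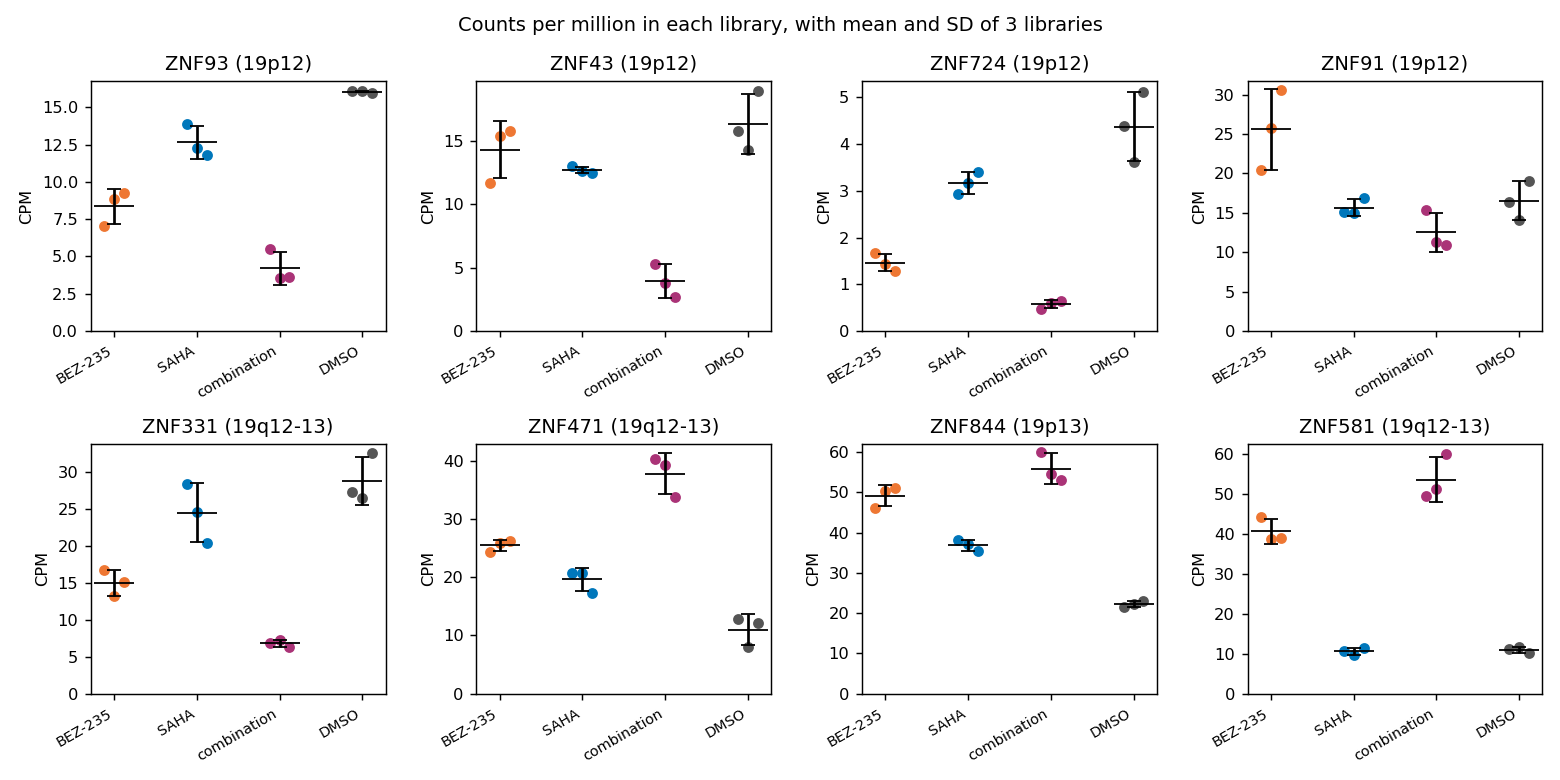
CPM of 8 members in each library (points), with the mean (wide line) and SD of 3 libraries, with BEZ-235, SAHA, both drugs and DMSO from left to right. ZNF93, ZNF43 and ZNF724 are lowest with both drugs, ZNF471 is highest there, and ZNF581 is near 11 CPM with SAHA and with DMSO.

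SAHA alone gave 19 higher and 33 lower calls of 228 (8.33% and 14.5%), where 22.2% of all tested genes were called higher and 20.9% lower, and the median was -0.06 over members and -0.01 over all tested genes. The correction lowered the median of all tested genes to -0.10 and that of members to -0.17, and gave 12 higher and 74 lower members (all tested genes 19.5% higher and 32.5% lower). By band, SAHA gave 9 higher and 6 lower in 19p13 (median 0.04), 1 higher and 7 lower in 19p12 (-0.33) and 9 higher and 20 lower in 19q12-13 (-0.08). After the correction these were 6 and 9 (-0.09), 1 and 14 (-0.41), and 5 and 51 (-0.21). Without SAHA replicate 2, the deepest library, the uncorrected count of lower members was 20.

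The members named with SAHA were within 2-fold of their DMSO level. ZNF471 stood at 20.8, 20.8 and 17.3 CPM with SAHA (0.84 ± 0.14, adjusted p = 1.84e-04), above its DMSO libraries. ZNF699, the human relative of the fly gene hangover, changed by 0.81 ± 0.15 (adjusted p = 2.77e-04), ZNF844 by 0.73 ± 0.08 (adjusted p = 2.74e-06) and ZNF555 by 0.68 ± 0.10 (adjusted p = 6.21e-05). ZNF428 stood at 19.2, 22.2 and 27.1 CPM with SAHA, against 45.2, 50.5 and 38.8 CPM with DMSO (-0.97 ± 0.15, adjusted p = 8.30e-05). The groups of ZNF428 did not overlap. It is among the most abundant members per length.

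In 19p13, ZNF414 stood at 2.47, 2.34 and 2.64 CPM with SAHA, against 4.70, 5.03 and 3.16 CPM with DMSO (-0.79 ± 0.23, adjusted p = 0.00972), a call that ended when DMSO replicate 2 was left out (adjusted p = 0.0534). ZNF333 fell by 0.63 on the log2 scale with SAHA (± 0.10, adjusted p = 5.72e-05) and ZNF561 by 0.49 (± 0.08, adjusted p = 7.50e-05). In 19p12 the lowest called members whose mean log2 CPM reached 1 and whose groups do not overlap were ZNF681 (-0.73 ± 0.18, adjusted p = 0.00405), ZNF675 (-0.56 ± 0.13, adjusted p = 0.00238), whose protein is known as an inhibitor of TRAF6 signalling, and ZNF85 (-0.46 ± 0.16, adjusted p = 0.0311). ZNF85 was no longer called when any SAHA library was left out (adjusted p = 0.113, 0.0567 and 0.0503 for replicates 1, 2 and 3), nor when DMSO replicate 1 (0.0826) or DMSO replicate 3 (0.107) was. ZNF737 was the member of 19p12 called higher (0.40 ± 0.12, adjusted p = 0.0153), and this was lost without DMSO replicate 2 (0.30, adjusted p = 0.0827).

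With both drugs the bands parted. Of 228 members 43 were called higher and 79 lower (18.9% and 34.6%), where 33.2% of all tested genes were called higher and 31.2% lower. In 19p12, 0 were higher and 21 of 24 lower, with a median of -1.38. In 19p13 there were 12 higher and 12 lower (median -0.06), and in 19q12-13, 31 higher and 46 lower (median -0.08). The median of all tested genes was 0.03, and that of zinc finger genes on other chromosomes was -0.09, with 70 higher and 89 lower of 233.

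After the correction, members had 70 higher and 56 lower calls (all tested genes 29.7% higher and 36.2% lower) and a median of -0.01. In 19p12, 2 were higher and 18 lower, with a median of -0.95, while 19p13 had 17 higher and 8 lower (0.03) and 19q12-13 had 51 higher and 30 lower (0.04). Of the 79 lower calls as counted, 49 remained (62.0%) and 2 became higher. Low GC content was also found outside 19p12. The 41 tested members of 19p13 and 19q12-13 under 40% GC had 3 higher and 22 lower as counted (median -0.27) and 17 higher and 5 lower after the correction (median 0.13). Across the tested members the log2 fold change with both drugs followed GC content with a Pearson r of 0.44 as counted and 0.06 after the correction, over points that share the same libraries, and across all tested genes with 0.30 and 0.02. The correction curves were fitted on GC content over the tested genes, members included. A corrected r near 0 over all tested genes therefore follows from the correction itself.

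**Figure D3:**
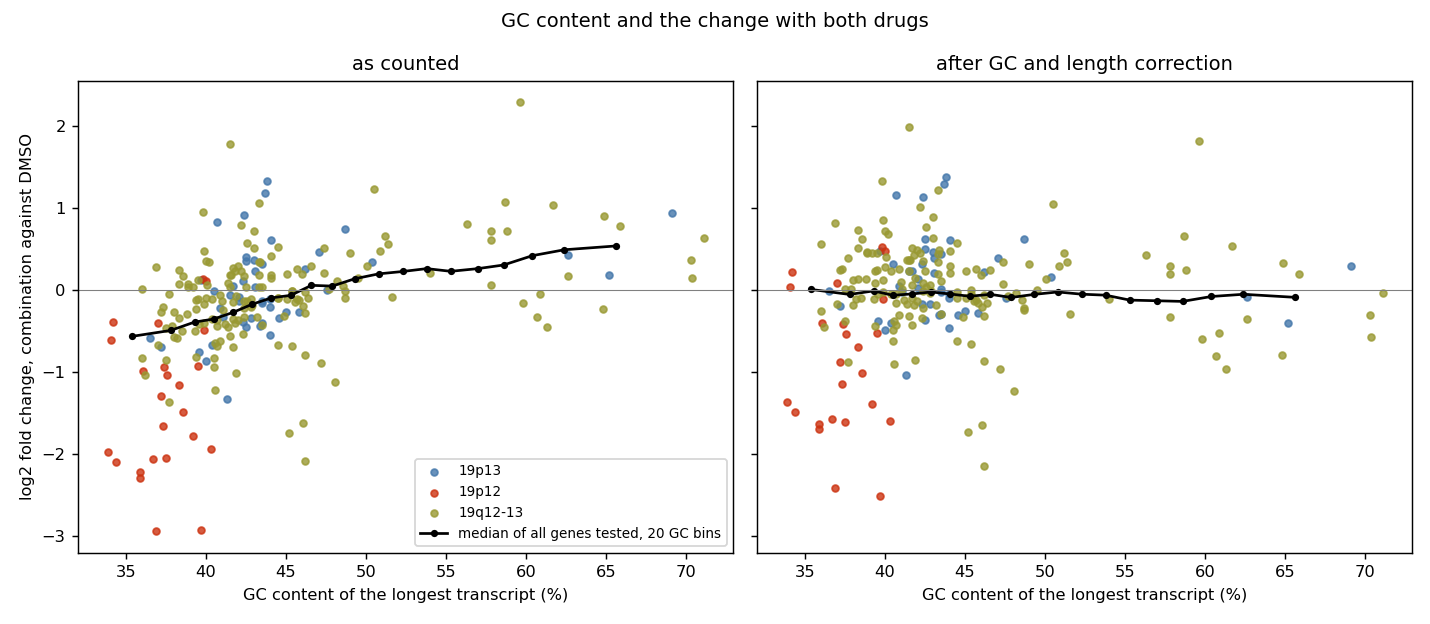
Log2 fold change with both drugs against DMSO (y axis) against the GC content of the longest transcript in percent (x axis) for each tested member, coloured by band, with the median of all tested genes in 20 GC bins (black line), as counted (left) and after GC and length correction (right). After correction the line is near 0 throughout, which the correction itself brings about, and most members of 19p12 remain below it.

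**Figure D4:**
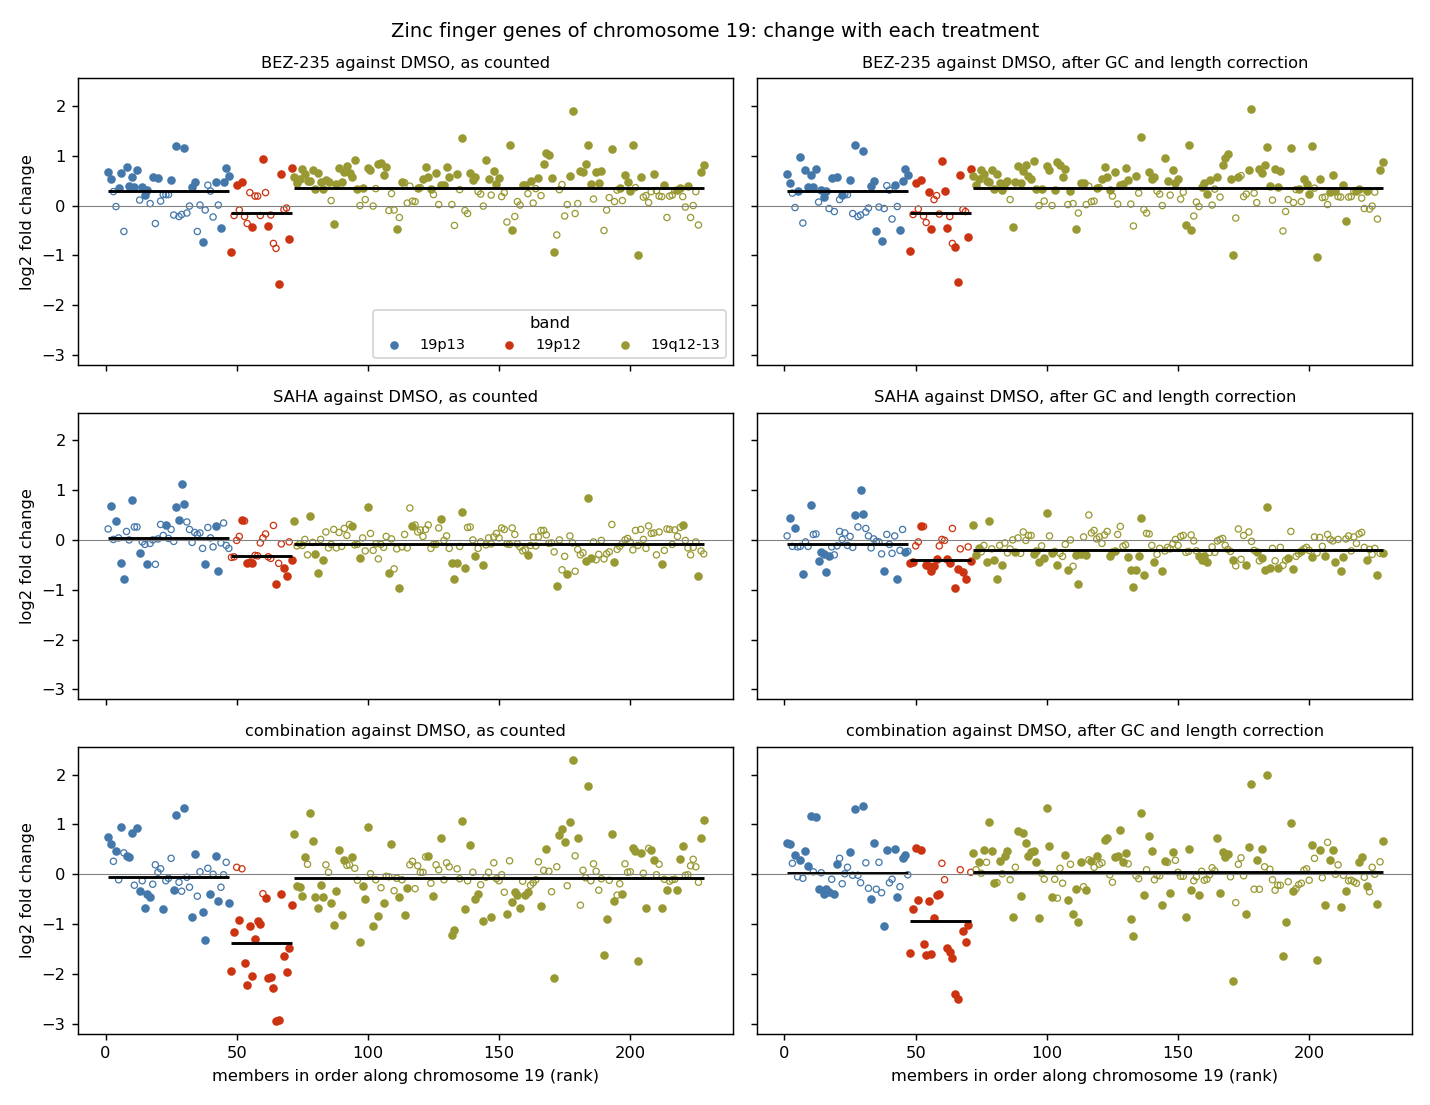
Log2 fold change of each tested member in its order along chromosome 19 (rank, x axis) for BEZ-235, SAHA and both drugs against DMSO (rows), as counted (left) and after correction (right), with filled points at adjusted p under 0.05 and black lines at the band medians. With both drugs the line of 19p12 lies at -1.38 as counted and -0.95 after correction, and the lines of the other bands lie within 0.1 of 0.

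The fall in 19p12 was seen in each library with both drugs. The summed level of the band was 148, 157 and 118 CPM with both drugs, 281, 321 and 342 CPM with BEZ-235, 253, 243 and 249 CPM with SAHA, and 283, 254 and 328 CPM with DMSO. Every sum with both drugs lay below every other sum. The median log2 difference of its members from the DMSO mean was -1.27, -1.01 and -1.46 in the libraries with both drugs, and -0.94, -0.64 and -0.89 after the correction. In 19p13 and 19q12-13 the corrected medians of these libraries lay between 0.00 and 0.13.

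ZNF93, at the band's edge, is the first gene of 19p12 by the limit used. It stood at 5.48, 3.53 and 3.60 CPM with both drugs, against 16.1, 16.1 and 16 CPM with DMSO, or 0.261 times the DMSO level (-1.94 ± 0.16, adjusted p = 2.32e-08; -1.59 ± 0.13 after the correction). All libraries with both drugs were below all others. The next genes on the 19p13 side behaved differently: ZNF253 changed by -0.58 as counted and -0.01 after the correction, and ZNF506 by 0.24 and 0.39. The limit did not part all genes near it, since ZNF90, close by on the 19p12 side, did not fall either (values below).

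ZNF43 and ZNF85 fell with both drugs as well. ZNF43 stood at 5.32, 3.81 and 2.69 CPM with both drugs, against 15.8, 14.3 and 18.9 CPM with DMSO (-2.06 ± 0.19, adjusted p = 1.09e-07; -1.57 ± 0.14 after the correction). ZNF85 stood at 2.07, 3.86 and 2.19 CPM with both drugs, against 12.6, 11.3 and 13.7 CPM with DMSO (-2.22 ± 0.19, adjusted p = 3.16e-08; -1.63 ± 0.17 after the correction). In both genes the groups were far apart. The same genes with single drugs stood at 14.3 ± 2.24 and 9.77 ± 0.734 CPM with BEZ-235 and at 12.7 ± 0.264 and 9.08 ± 0.870 CPM with SAHA (SD, n = 3 each; ZNF43 before ZNF85).

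ZNF724 stood at 0.478, 0.607 and 0.637 CPM with both drugs, or 0.133 times its DMSO level (-2.92 ± 0.23, adjusted p = 1.31e-08; -2.51 ± 0.23 after the correction). Its fold was the lowest among called members whose mean log2 CPM reached 1 and whose groups do not overlap. ZNF100 (-2.09 ± 0.17), ZNF714 (-2.05 ± 0.19), ZNF681 (-1.97 ± 0.21) and ZNF675 (-1.65 ± 0.14) fell with both drugs as well, at adjusted p of 2.70e-08, 6.92e-08, 3.84e-07 and 4.73e-08 in that order. After the correction they were at -1.48, -1.61, -1.36 and -1.14.

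A few genes of the band did not share this fall. ZNF91 stood at 15.4, 11.3 and 10.9 CPM with both drugs, so that its groups overlap, and its change of -0.40 ± 0.16 (adjusted p = 0.0399) became 0.09 ± 0.11 after the correction (adjusted p = 0.512). The uncorrected call also ended when combination replicate 2 (adjusted p = 0.107), combination replicate 3 (0.137), DMSO replicate 1 (0.0592) or DMSO replicate 3 (0.136) was left out. ZNF737 stood at 16.1, 14.6 and 11.5 CPM with both drugs, against 13.8, 11.2 and 13.9 CPM with DMSO (0.11 ± 0.13, adjusted p = 0.464), and at 0.48 ± 0.11 after the correction (adjusted p = 7.86e-04). ZNF90 had 0.14 ± 0.15 as counted and 0.53 ± 0.15 after it, and ZNF493, ZNF254 and ZNF429 had -0.39, -0.61 and -0.48 as counted and 0.22, 0.04 and -0.11 after it.

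**Figure D5:**
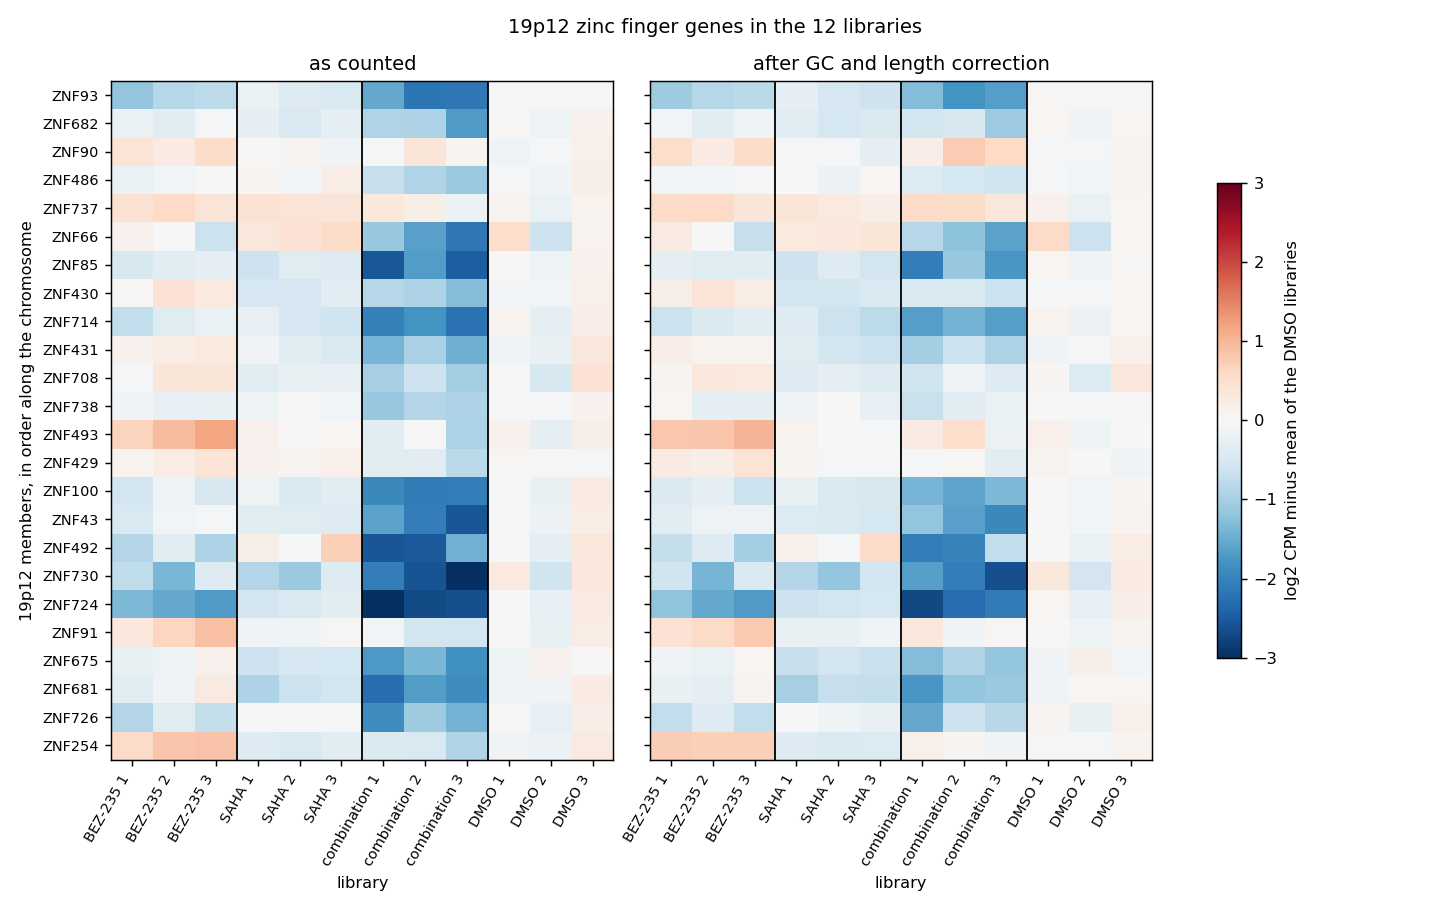
Log2 CPM minus the mean of the DMSO libraries (colour) for the 24 tested members of 19p12 (rows, in order along the chromosome) in the 12 libraries (columns, grouped by treatment), as counted (left) and after correction (right). Most rows are blue in the 3 libraries with both drugs in both panels, and ZNF90, ZNF737 and ZNF91 are pale or red there after correction.

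Other features of the 19p12 genes were set beside these values. The 21 tested members of the band with the KRAB letters had 0 higher and 18 lower with both drugs (median -1.29; 2 and 15 after the correction, median -0.88). The 9 tested genes whose promoter holds the 20-letter word had 0 higher and 8 lower with a median of -1.94 (1 and 7 after the correction, median -1.39), and the 14 without it 0 higher and 12 lower with a median of -1.09 (1 and 10, median -0.61). ZNF91 has the word and ZNF43 and ZNF724 do not. Outside the band, the 25 tested members of 19p13 with CCAATCAG had 4 higher and 5 lower (median -0.06; 8 and 2 after the correction, median 0.14). Among all tested genes 33.2% were called higher and 31.2% lower with both drugs (29.7% and 36.2% after the correction). Whether either word bears on the change was not tested. Similar sequence also bears on counting, since 84.0% of the values of 19p12 members were not whole numbers, meaning that reads were divided among genes, against 59.0% in 19p13, 51.0% in 19q12-13 and 40.5% over all tested genes.

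On the long arm, ZNF331 and ZNF530 fell most with both drugs. ZNF331, an imprinted gene, stood at 6.91, 7.28 and 6.33 CPM with both drugs, against 27.3, 26.5 and 32.5 CPM with DMSO (-2.08 ± 0.14, adjusted p = 1.85e-09; -2.14 ± 0.12 after the correction). The groups were far apart, and none of its values was divided among genes. ZNF530 changed by -1.74 ± 0.19 (adjusted p = 4.73e-07) and ZNF569 by -1.36 ± 0.12 (adjusted p = 5.01e-08; -0.87 ± 0.09 after the correction). In 19p13, ZNF443 was the lowest (-1.32 ± 0.15, adjusted p = 9.52e-07), with 40.17% of its words shared, and ZNF136 had -0.86 ± 0.13 and ZNF441 -0.69 ± 0.13, the last of which lost its call after the correction (-0.19, adjusted p = 0.0776).

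The members highest with both drugs were in the same 2 bands. ZNF581 stood at 49.5, 51.2 and 60.1 CPM with both drugs, against 11.1, 11.7 and 10.1 CPM with DMSO (2.29 ± 0.11, adjusted p = 2.58e-11; 1.82 ± 0.08 after the correction). ZNF471 stood at 40.3, 39.2 and 33.8 CPM with both drugs, against 12.9, 7.95 and 12.2 CPM with DMSO (1.78 ± 0.14, adjusted p = 1.86e-08; 1.99 ± 0.12 after the correction). ZNF844 stood at 60.1, 54.5 and 53.0 CPM with both drugs, against 21.5, 22.2 and 22.9 CPM with DMSO (1.33 ± 0.08, adjusted p = 6.82e-10). In all 3 genes the libraries with both drugs were above all DMSO libraries. ZNF792 (1.23 ± 0.12), ZNF763 (1.18 ± 0.18) and ZNF358 (0.94 ± 0.13) were also called higher, and ZNF358, at 69.1% GC, was at 0.29 ± 0.08 after the correction.

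The set was then compared between both drugs and each drug alone. Against BEZ-235, 14 members were called higher and 144 lower with both drugs (6.14% and 63.2%, against 29.5% and 28.5% of all tested genes). After the correction these were 9 and 120 (3.95% and 52.6%, against 23.5% and 32.7% of all tested genes). Zinc finger genes of other chromosomes had 35 higher and 124 lower of 233 tested (53.2% lower), and 21 and 141 after the correction (60.5% lower). In 19p12, 0 were higher and 23 of 24 lower (median -1.33), and 0 and 19 after the correction (median -0.74). Among called members whose mean log2 CPM reached 1, the lowest were ZNF681 (-1.92 ± 0.21, adjusted p = 9.72e-07), ZNF43 (-1.87 ± 0.19, adjusted p = 6.87e-07) and ZNF85 (-1.86 ± 0.19, adjusted p = 5.52e-07). The highest were ZNF414 (0.95 ± 0.23), ZNF865 (0.86 ± 0.20) and ZNF792 (0.74 ± 0.12), at 62.6%, 71.1% and 50.5% GC. The first and second of these lost their calls after the correction (0.27, adjusted p = 0.196, and -0.22, adjusted p = 0.354), and ZNF792 was at 0.58 ± 0.10.

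Against SAHA, 44 members were called higher and 64 lower with both drugs (29.9% and 28.9% of all tested genes), and 94 and 29 after the correction (27.3% and 24.6% of all tested genes). Zinc finger genes of other chromosomes had 84 higher and 72 lower of 233 tested, and 95 and 34 after the correction. In 19p12, 0 were higher and 19 lower (median -1.04), and 3 and 14 after the correction (median -0.49). By the same limit on level, ZNF724 (-2.45 ± 0.23, adjusted p = 1.93e-07), ZNF331 (-1.84 ± 0.14, adjusted p = 1.51e-08) and ZNF85 (-1.76 ± 0.19, adjusted p = 8.03e-07) were the lowest. ZNF581 (2.35 ± 0.10, adjusted p = 2.07e-11), ZNF358 (1.41 ± 0.13, adjusted p = 2.54e-07) and ZNF446 (1.36 ± 0.13, adjusted p = 2.60e-07) were the highest. Below this limit stood ZNF730, ZNF492 and ZNF66 of 19p12, at 0.279, 0.327 and 0.571 CPM with both drugs on average and 2.13, 1.66 and 1.96 CPM with DMSO.

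The interaction asks whether SAHA did more or less in the presence of BEZ-235 than without it. It was called higher in 15 members and lower in 105 as counted (18.9% and 19.6% of all tested genes), with a median of -0.47. After the correction it was higher in 3 and lower in 22 (1.32% and 9.65%, against 9.85% and 8.59% of all tested genes), with a median of -0.12. In zinc finger genes of other chromosomes it was higher in 32 and lower in 97 of 233 as counted (41.6% lower). After the correction these were 5 and 41 (17.6% lower). In 19p12 it was lower in 21 as counted (median -0.95) and in 6 after the correction (median -0.40). Of the 105 lower calls, 20 were kept (19%). The corrected count was 10 without BEZ-235 replicate 3 or combination replicate 3, and that of 19p12 was 3 without BEZ-235 replicate 1 or 2, DMSO replicate 2 or combination replicate 3. For ZNF43 it was -1.50 ± 0.26 (adjusted p = 4.91e-04), with -0.88 ± 0.19 corrected (adjusted p = 0.00411). For ZNF85 it was -1.41 ± 0.25 (adjusted p = 6.19e-04), with -0.78 ± 0.22 corrected (adjusted p = 0.0194). ZNF93, which fell with BEZ-235 alone, stood at -0.65 ± 0.22 (adjusted p = 0.0265) and, once corrected, at -0.21 ± 0.18 (adjusted p = 0.467). The 3 comparisons against DMSO share the DMSO libraries, and the interaction uses all 4 groups.

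The pathway through which KRAB proteins act was read from a list of 28 genes for corepressors, HP1 proteins, H3K9 and DNA methylation and their readers, all of them tested. With BEZ-235, 4 were called higher and 10 lower, where 25.5% of all tested genes were higher and 25.4% lower. With SAHA 3 were higher and 12 lower (22.2% and 20.9% of all tested genes), and with both drugs 5 and 18 (33.2% and 31.2%). After the correction these were 6 and 11 with BEZ-235 (27.7% and 28.0% of all tested genes), 2 and 17 with SAHA (19.5% and 32.5%), and 4 and 19 with both drugs (29.7% and 36.2%). TRIM28, the corepressor itself, stood at 126 CPM with BEZ-235, 95.2 with SAHA, 133 with both drugs and 132 with DMSO on average. Its change with both drugs was 0.01 ± 0.10 as counted (adjusted p = 0.922), and the corrected value was -0.51 ± 0.08 (adjusted p = 1.42e-05). SETDB1 rose with BEZ-235 (0.38 ± 0.07, adjusted p = 1.85e-04) and was at 0.12 ± 0.07 with both drugs (adjusted p = 0.127).

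Genes of DNA methylation maintenance and some genes of H3K9 methylation fell with both drugs. UHRF1, which guides DNMT1 to newly copied DNA, had the lowest change of the list with both drugs and averaged 3.07 CPM with BEZ-235, 29.7 with SAHA, 1.92 with both drugs and 56.8 with DMSO (-4.87 ± 0.15 with both drugs, adjusted p = 2.68e-13). DNMT1 averaged 80.2, 155 and 65.0 CPM in the same order of treatments and 225 CPM with DMSO (-1.79 ± 0.08 with both drugs, adjusted p = 9.30e-12). The H3K9 methyltransferase genes SUV39H1 (-2.27 ± 0.16) and SUV39H2 (-2.12 ± 0.11) and the HP1 gene CBX5 (-1.28 ± 0.10) fell with both drugs. Other H3K9 methyltransferase genes moved less as counted. EHMT2 was at 0.06 ± 0.08 (adjusted p = 0.569) and EHMT1 at -0.23 ± 0.10 (adjusted p = 0.0486). After the correction they were at -0.42 and -0.59. CHD3 fell with SAHA (-0.74 ± 0.08, adjusted p = 3.26e-06). Some genes of the list rose. MORC2 rose with both drugs (0.58 ± 0.07, adjusted p = 1.39e-06), MPHOSPH8 with BEZ-235 (0.41 ± 0.06, adjusted p = 5.01e-05) and KDM4C with SAHA (0.34 ± 0.08, adjusted p = 0.0032). HDAC1 rose with SAHA (0.39 ± 0.08, adjusted p = 7.23e-04) and with both drugs (0.58 ± 0.08, adjusted p = 8.47e-06). HDAC2 was at -0.40 ± 0.10 with both drugs (adjusted p = 0.00262) and at -0.04 after the correction (adjusted p = 0.797). These genes moved in the same libraries as the members, and a link was not tested.

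By level per length, the set was modest. The median member stood at 3.77 RPKM (CPM relative to the length of the longest transcript in kilobases) with BEZ-235, 2.80 with SAHA, 2.56 with both drugs and 2.84 with DMSO, against 4.79 RPKM over all tested genes with DMSO. The highest members with DMSO were ZNF146 (52.0 RPKM), ZNF428 (31.8), ZNF561 (20), ZNF302 (19.9) and ZNF121 (18.6), and the last 3 lie close together. ZNF146, whose protein consists of zinc fingers with no KRAB domain, stood at 247, 236 and 259 CPM with BEZ-235, 153, 159 and 171 with SAHA, 171, 139 and 123 with both drugs, and 191, 203 and 195 with DMSO. It was above DMSO with BEZ-235 (0.33 ± 0.10, adjusted p = 0.00961) and below it with both drugs (-0.45 ± 0.10, adjusted p = 7.27e-04), with no overlap in either case. ZNF302 was at 0.53 ± 0.10 with BEZ-235 (adjusted p = 3.12e-04) and at -0.26 ± 0.10 with both drugs (adjusted p = 0.0327), which turned to 0.25 ± 0.06 after the correction (adjusted p = 0.00197). As counted, its call with both drugs also ended when combination replicate 2 (adjusted p = 0.0556), combination replicate 3 (-0.16, adjusted p = 0.156) or DMSO replicate 3 (0.0503) was left out.

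Members with a described function moved in different ways. ZNF274, which brings SETDB1 to zinc finger genes themselves, stood at 32.7, 30.4 and 33.7 CPM with both drugs, against 22.3, 21.3 and 21.8 CPM with DMSO (0.57 ± 0.08, adjusted p = 1.16e-05), with no overlap. ZNF536, a neural repressor gene, stood at 39.2, 46.9 and 48.4 CPM with both drugs, against 25.4, 25.2 and 25.9 CPM with DMSO (0.81 ± 0.09, adjusted p = 1.04e-06; 0.43 ± 0.08 after the correction), again with no overlap. ZNF350, whose protein binds BRCA1, rose with BEZ-235 (0.66 ± 0.14, adjusted p = 8.45e-04) and with both drugs (0.58 ± 0.14, adjusted p = 0.00178). ZNF382, a KRAB repressor gene, rose with BEZ-235 (0.52 ± 0.10, adjusted p = 3.32e-04). ZNF649, a repressor gene that overlaps ZNF577 on its strand, fell with SAHA (-0.57 ± 0.11, adjusted p = 3.75e-04) and with both drugs (-0.69 ± 0.11, adjusted p = 3.58e-05).

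The members that were not tested also belong to the picture. Of the 18, 9 lie in 19p12 (ZNF626, ZNF208, ZNF257, ZNF676, ZNF729, ZNF98, ZNF99, ZNF723 and ZNF728), with 3 to 36 counts summed over the 12 libraries, 3 in 19p13 and 6 in 19q12-13. None was at 0 in every library. Fitted without the filter, these 18 gave 2 calls over the 6 comparisons, both on the long arm. ZNF837 was lower with SAHA (0.0621 CPM on average, against 0.367 CPM with DMSO, adjusted p = 0.00980), and ZNF296 was higher in the comparison of both drugs (0.178 CPM) with SAHA (0.0198 CPM, adjusted p = 0.0271). Overlapping genes limit the rest: 104 members overlap another gene on their strand and 131 one on the other strand. The 132 tested members that overlap none on their strand had 61 higher and 7 lower with BEZ-235 (25.5% and 25.4% of all tested genes). With SAHA they had 9 and 23 (22.2% and 20.9%), and with both drugs 25 and 53 (33.2% and 31.2%). After the correction these were 67 and 8 with BEZ-235 (27.7% and 28.0% of all tested genes). They were 5 and 48 with SAHA (19.5% and 32.5%), and 35 and 38 with both drugs (29.7% and 36.2%).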

How the data were processed

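Polyadenylated RNA of 12 NB-1 cultures was sequenced in TruSeq stranded libraries, per the labels' protocols. Per the submitters' processing notes, reads were aligned and counted with STAR and RSEM on build hg38. Which versions, annotation and strand setting were used is not given in the sources used here. Per gene, the deposited values are expected counts, estimated by RSEM and unscaled, and were rounded to whole counts.

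All libraries entered 1 model with a mean for each of 4 groups, leaving 8 residual degrees of freedom. It was fitted in edgeR 4.0.16 (R 4.3.3) after filterByExpr and TMM scaling, with the robust quasi-likelihood test, 2-sided. Calls are at a Benjamini-Hochberg adjusted p under 0.05 over 17774 genes. P-values set each difference against a spread within groups that was estimated over all 12 libraries, which are cultures of 1 cell line. The common biological coefficient of variation was 10.6%, and ± is the SE unless SD is written. CPM use the TMM-scaled totals. The correction for GC content and length set, for each library, smooth curves (5 degrees of freedom) on the GC content and log length of the longest GENCODE 29 transcript as offsets. These were known for 99.27% of the tested genes. The scripts were tested on simulated counts.

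Bands split at 19.9 Mb and at the centromere. Clusters join members whose starts lie within 1 Mb. Members, lists and words were chosen with earlier results of these data known. Named genes were the 3 highest and 3 lowest called members per band and comparison against DMSO whose mean log2 CPM reached 1 and with groups that do not overlap, the 3 highest and lowest of the other comparisons at that level, the 5 most abundant per length, and members with a known role. Other genes of 19p12 and untested genes named were chosen after their values were seen. Corepressor genes were named by smallest p or role. Alternatives were DESeq2 1.42.0, scaling by relative log expression, a filter at mean CPM 1 or none, the replicate number as a block, values left unrounded, GC corrections, fits of the compared groups, and each library left out, also (added after seeing the data) with the correction. One marker gene is not reported here.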

Additional observations from a re-analysis of the deposited data

Results flagged for a closer look

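The effect of SAHA with BEZ-235 present differed from its effect alone, by the test of the interaction (log2 scale, edgeR), in the 6 members given here. They were the 3 highest and 3 lowest called members whose mean log2 CPM reached 1, and other members were called too. The interaction was below 0 for ZNF43 (-1.50), ZNF85 (-1.41) and ZNF404 (-1.39), with corrected values of -0.88, -0.78 and -0.77 that kept their calls (adjusted p = 0.00411, 0.0194 and 0.0346). ZNF404 stood at 3.56, 5.52 and 2.5 CPM with both drugs, against 8.20, 9.47 and 10.1 CPM with BEZ-235. It was above 0 for ZNF414 (1.75), ZNF865 (1.18) and ZNF787 (1.16), members with 62.6%, 71.1% and 70.3% GC in the longest transcript. After the correction ZNF414 was at 0.95 (adjusted p = 0.0130), and ZNF865 (-0.31, adjusted p = 0.467) and ZNF787 (-0.35, adjusted p = 0.375) changed sign and were not called. ZNF787 also lost its uncorrected call without BEZ-235 replicate 2 (adjusted p = 0.0583) or 3 (0.0556), combination replicate 2 (0.0536) or 3 (0.0581), or DMSO replicate 2 (0.86, adjusted p = 0.0790).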

How the results depend on the processing

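Counts of calls moved past 1.5 times under the GC corrections and hardly elsewhere. In the order GC with length, the same with curves fitted without zinc finger genes, GC alone, and the replicate block with GC and length, SAHA against DMSO gave 12, 12, 11 and 12 higher (19 as counted) and 74, 77, 75 and 66 lower (33). Both drugs against BEZ-235 gave 9 higher under each (14). Both drugs against SAHA gave 94, 94, 86 and 89 higher (44) and 29, 28, 31 and 29 lower (64). The interaction gave 3 higher under each (15), 22, 22, 22 and 19 lower (105), and in 19p12 6, 6, 6 and 4 lower (21). Both drugs against DMSO gave 70 and 69 higher (43) under the first and second. Signs turned for ZNF91 with both drugs (0.09, 0.08, 0.08, 0.09), ZNF302 with both drugs (0.25, 0.24, 0.20, 0.25), ZNF865 against BEZ-235 (-0.22, -0.23, -0.22, -0.20) and in the interaction (-0.31, -0.31, -0.30, -0.30), and ZNF787 in the interaction (-0.35, -0.35, -0.34, -0.35). Under GC and length correction, some named genes gained a lower call with SAHA. They were ZNF93 (-0.47, adjusted p = 0.00242), ZNF331 (-0.40, 0.00345), ZNF121 (-0.28, 4.26e-04) and ZNF302 (-0.16, 0.0384). ZNF274 lost its call with SAHA there (0.15, adjusted p = 0.0638). The corrections assume that typical genes of equal GC content did not move with treatment, and the cause of the GC shift was not tested.

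Leaving out each library in turn gave, for BEZ-235 against DMSO, 90 to 114 higher and 8 to 15 lower as counted (105 to 123 and 12 to 18 with the correction). For SAHA these were 13 to 24 and 20 to 40 (8 to 12 and 55 to 78). For both drugs against DMSO they were 38 to 45 and 67 to 84 (57 to 70 and 52 to 57), and in 19p12 20 to 22 lower (16 to 18). Both drugs against BEZ-235 gave 11 to 17 and 124 to 147 (7 to 9 and 113 to 125), in 19p12 22 to 24 lower (19 to 21). Both drugs against SAHA gave 32 to 43 and 51 to 75 (80 to 96 and 27 to 30), in 19p12 18 to 21 lower (13 to 15). The interaction gave 9 to 15 and 81 to 117 (2 to 4 and 10 to 28), in 19p12 18 to 22 lower (3 to 5), with 9 higher without BEZ-235 replicate 3 or combination replicate 3. With the correction, its lower calls numbered 10 without BEZ-235 replicate 3 or combination replicate 3, 11 without DMSO replicate 1, and 14 without BEZ-235 replicate 1, DMSO replicate 2 or SAHA replicate 1, and those in 19p12 numbered 3 without BEZ-235 replicate 1 or 2, DMSO replicate 2 or combination replicate 3.

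Same-numbered libraries did not deviate together (r of -0.16 to 0.13), so no shift shared by number was seen. This cannot tell whether same-numbered cultures were set up together, which the labels do not state. The replicate block alone gave 108 higher and 11 lower with BEZ-235, 16 and 32 with SAHA, 42 and 72 with both drugs (21 lower in 19p12), and 13 and 96 in the interaction, all within 1.5 times of the fit without it, and among named genes it took the uncorrected call from ZNF302 with both drugs (adjusted p = 0.0514) and from ZNF121 with BEZ-235 (adjusted p = 0.0731), which was also lost without 9 of the 12 libraries (adjusted p of 0.0577 to 0.282). Low counts limit 19p12 most, where 9 of 33 members could not be tested.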
